A study of Xenopus laevis with 72 samples.

Results

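Early Xenopus embryos divide quickly and in step until the midblastula transition, when cycles lengthen, gap phases appear and the zygotic genome is activated. The switch that is slowed is Cdk1 with its cyclins. Wee1-type kinases and Myt1 hold Cdk1 inactive by adding phosphates, and Cdc25 phosphatases remove them. The checkpoint kinase Chk1 acts at this transition on Cdc25A, which is then degraded, and it is switched on through ATR with the help of TopBP1 and the adaptor Claspin. TopBP1 is also one of the replication factors known to become limiting as nuclei multiply. Xenopus laevis is allotetraploid, so most of these genes exist as 2 homeologs, one on a long (L) and one on a short (S) chromosome.

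The cell-cycle genes described here were the entries named chek1, topbp1, cdc25a, cdc25b, cdc25c, wee1, wee2, pkmyt1 or claspn with the ending .L or .S. There were 15 of them among 39668 gene entries, all protein-coding, each with 1 row in both deposited tables, and all 15 passed the filter of an average of 1 TPM or more in each frog. TPM is a transcript's share of all transcripts of a library, protein-coding or not, corrected for length and scaled to a fixed total. Entries named claspn.L, claspn.S and topbp1.S were not found and were not analysed here. An entry clspn.S, which carries the usual symbol of claspin, lies outside this naming rule, and its values are given only beside the others, chosen after they were seen. No sequence of these genes was available to print.

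Wild-type embryos of 4 groups were compared: Cxxc1 MO and Kmt2b MO embryos, each injected at the 1-cell stage with a morpholino against a subunit of the SET1 H3K4 methyltransferase complex or against an H3K4 methyltransferase, Ctrl MO embryos, injected with a standard control morpholino, and non-injected NI Ctrl embryos. The dose was 9.2 nl at a concentration of 1 mM. Whole embryos were collected at 5.5, 6.5 and 7.5 hours post fertilization (hpf) from 2 frogs, with 3 sets of 3 embryos per group, time point and frog, 72 libraries in all. Both gene-specific morpholinos block translation and were designed against both homeologs, so the target's own mRNA level does not check the knockdown. The 3 sets of a group and time point share a frog, so p-values measure the spread between these sets in 2 frogs and part of it may be technical. Messages differ between cells of an embryo, and in whole embryos fewer cells expressing a gene and less RNA per cell cannot be told apart.

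No read counts can be had from TPM, and the depth of a library is unknown. Protein-coding genes held 72.1% to 88.4% of the TPM of a library at 5.5 hpf, 74.2% to 86.8% at 6.5 hpf and 47.9% to 68.8% at 7.5 hpf, so protein-coding messages took a smaller part of the total at the last time point. As a check of stage, the summed level of 8 zygotic entries (nodal5, nodal6, sia1, gsc and mixer) had medians of 4.08, 23.8 and 102 TPM at the 3 time points (n = 24 libraries each). The sum of 8 maternal entries had medians of 980, 829 and 519 TPM, and 8 entries of differentiated tissues never summed to more than 1.28 TPM. The fall of the maternal entries was near that of all genes that passed the filter. In NI Ctrl embryos their median change from 5.5 to 7.5 hpf was -0.97 on the log2(TPM + 1) scale, beside -0.92.

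In NI Ctrl embryos most of these genes were abundant at 5.5 hpf, and 12 of the 15 had fallen by 7.5 hpf, as had most genes. Of the 15, the 2 cdc25b homeologs rose. The falls of topbp1.L, chek1.S, cdc25c.S and pkmyt1.L were the largest of the 15, at percentiles 0.19, 4.81, 4.93 and 8.96 of all tested genes, and wee1.L did not pass the test. The plot of levels in every library shows these courses for each homeolog.

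**Figure D1:**
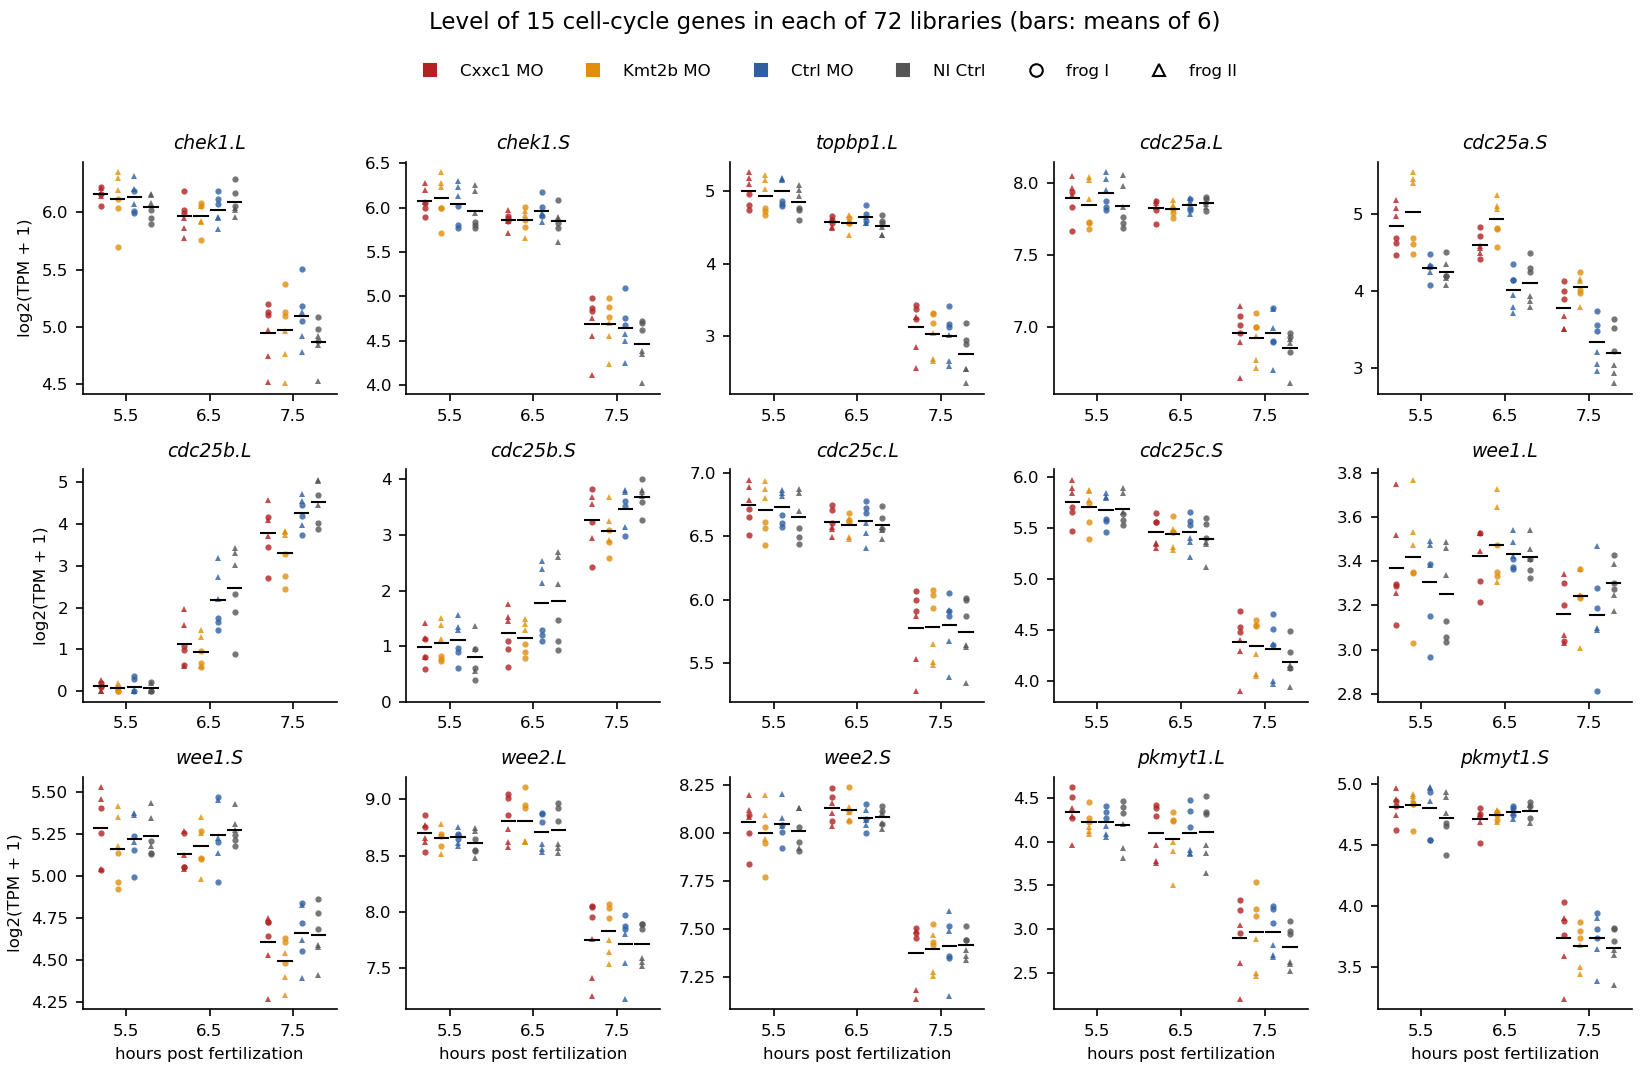
Level on the log2(TPM + 1) scale against time for each of the 15 genes; points are libraries of Cxxc1 MO, Kmt2b MO, Ctrl MO and NI Ctrl embryos, circles and triangles are frogs I and II, black bars are means of 6 libraries, and each panel has its own vertical range, which need not start at 0. The cdc25b homeologs climb in all groups while the others fall or stay, and most knockdown points of cdc25a.S lie above those of both controls.

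The checkpoint kinase was represented by both homeologs at near equal levels. In NI Ctrl embryos chek1.L had a lowest, median and highest level of 58.5, 65.4 and 70.3 TPM at 5.5 hpf, 61.2, 65.0 and 77.1 TPM at 6.5 hpf and 22.1, 28.9 and 33.0 TPM at 7.5 hpf (n = 6 each). For chek1.S these values were 53.6, 58.2 and 75.3 TPM, then 48.1, 56.7 and 67.1 TPM, then 15.2, 21.7 and 25.3 TPM. The 6.5 and 5.5 hpf libraries overlapped for both homeologs, whereas every 7.5 hpf library lay below every earlier one. From 5.5 to 7.5 hpf chek1.L fell by 1.17 and chek1.S by 1.50 on the log2(TPM + 1) scale (SE 0.08 and 0.12, limma with Benjamini-Hochberg adjustment over all tested genes, adjusted p = 3.8e-10 and 1.6e-09). The share of S in the chek1 sum had medians of 49.0%, 48.1% and 43.4% over the 24 libraries of each time point.

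topbp1.L encodes the scaffold that activates ATR. It had 23.3, 27.9 and 32.8 TPM in NI Ctrl embryos at 5.5 hpf (lowest, median and highest of 6), 19.9, 22.1 and 24.5 TPM at 6.5 hpf and 4.11, 5.69 and 8.13 TPM at 7.5 hpf. The 7.5 hpf values did not overlap with the earlier ones, and this was the strongest fall among the 15 genes on all 3 scales described further on. Its log2 change from 5.5 to 7.5 hpf was -2.10 (SE 0.12, limma adjusted p = 3.9e-11), at percentile 0.19 of all tested genes, with -1.69 in frog I and -2.52 in frog II. clspn.S had a like course, with medians of 126, 99.3 and 33.2 TPM and a log2 change of -1.95 (SE 0.12, limma adjusted p = 7.8e-11). The 3 named genes whose 24 means (4 groups, 3 time points and 2 frogs) most resembled those of topbp1.L were fem1c.L, qrich1.S and klf2.L (Pearson's r 0.998, 0.997 and 0.997, across means that share libraries). Among the 15 genes its r ranged from 0.995 with chek1.S and cdc25c.S to -0.92 with the cdc25b homeologs, so values near 1 were not particular to these 3.

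Among the phosphatases, cdc25a and cdc25c messages were abundant from the first time point and cdc25b messages were at or near 0. cdc25a.L, the homeolog with the higher level, had medians of 222, 232 and 118 TPM in NI Ctrl embryos at 5.5, 6.5 and 7.5 hpf, and cdc25a.S had 17.3, 16.2 and 7.78 TPM. Their falls from 5.5 to 7.5 hpf were of like size, -0.99 (SE 0.07) for cdc25a.L and -1.06 (SE 0.10) for cdc25a.S, close to the median of all tested genes. cdc25c.L, a homeolog of the phosphatase that acts at entry into mitosis, had medians of 98.3, 93.6 and 53.2 TPM, and cdc25c.S had 49.0, 40.7 and 16.7 TPM. cdc25c.S fell by 1.50 and cdc25c.L by 0.91 on the log2 scale (SE 0.09 and 0.11), and the share of S in the cdc25c sum had medians of 32.8%, 30.7% and 26.3% over all libraries of the 3 time points.

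cdc25b.L was listed at 0 in 4 of 6 NI Ctrl libraries at 5.5 hpf and did not exceed 0.153 TPM in the others. It then had 0.852, 5.54 and 9.71 TPM at 6.5 hpf (lowest, median and highest) and 13.8, 22.9 and 32.4 TPM at 7.5 hpf. cdc25b.S started at 0.304, 0.717 and 1.55 TPM, had 0.908, 2.56 and 5.45 TPM at 6.5 hpf and 8.67, 12.3 and 15.1 TPM at 7.5 hpf. For cdc25b.L the 3 time points did not overlap, and for cdc25b.S the first and second did. The log2 changes from 5.5 to 6.5 hpf were 2.41 for cdc25b.L (SE 0.27) and 1.02 for cdc25b.S (SE 0.22), and from 6.5 to 7.5 hpf they were 2.05 and 1.88 (limma adjusted p = 1.2e-05, 0.0048, 1.3e-06 and 2.6e-07). The size for cdc25b.L rests on the pseudocount, because its early values are near 0: over the 2 hours it was 4.46 with a pseudocount of 1 and 7.36 with 0.1. The genes most like cdc25b.L over the 24 means were fgf8.L, lhx5.S and has1.S (Pearson's r 0.993 each, across means that share libraries). In NI Ctrl embryos 2725 of the 19544 tested genes rose from 5.5 to 7.5 hpf, and whether such r values are particular to these 3 was not tested. cdc25b took a median of 0.237%, 0.862% and 11.1% of the summed cdc25a, cdc25b and cdc25c level at the 3 time points (n = 24 each), and at most 19.3% in any library of 7.5 hpf.

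The kinases that oppose Cdc25 were led by wee2, the maternal form of Wee1 in Xenopus embryos. wee2.L had medians of 387, 417 and 211 TPM in NI Ctrl embryos at 5.5, 6.5 and 7.5 hpf, the highest of the 15 genes at each time, and wee2.S had 254, 270 and 170 TPM. Their ranges did not overlap at 5.5 hpf. wee1, the form known from later stages, had medians of 8.43, 9.63 and 8.76 TPM for wee1.L and 35.6, 37.3 and 23.9 TPM for wee1.S. It made up a median of 6.46%, 6.16% and 7.77% of the wee1 and wee2 sum over all libraries of the 3 time points. The wee1.L values of the 3 time points overlapped, and its change of 0.05 from 5.5 to 7.5 hpf did not pass the test (SE 0.08, limma adjusted p = 0.55). Fitted by frog it was 0.26 in frog I and -0.16 in frog II (limma adjusted p = 0.012 and 0.15), and the difference between the frogs was not tested. wee1.S, wee2.L and wee2.S fell by 0.59, 0.90 and 0.60 (SE 0.08, 0.08 and 0.05), although wee1.S and wee2.S turned to higher when libraries were centred on their median gene.

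pkmyt1, which encodes the membrane-bound kinase Myt1, had lower levels than wee2. pkmyt1.L had medians of 18.2, 16.7 and 5.95 TPM and pkmyt1.S of 25.5, 27.0 and 11.8 TPM in NI Ctrl embryos. They fell by 1.39 and 1.07 from 5.5 to 7.5 hpf (SE 0.08 and 0.09). The summed wee1, wee2 and pkmyt1 level divided by the summed cdc25 level had medians of 1.81, 2.02 and 1.88 over the 24 libraries of each time point, with ranges that overlapped between all 3, from 1.59 to 2.36 in all libraries.

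From 5.5 to 7.5 hpf, 2 of the 15 genes rose and 12 fell, where 13.9% of the 19544 tested genes rose and 77.7% fell. From 5.5 to 6.5 hpf, 2 rose and none fell (limma, 4 at an unadjusted p under 0.05), against a background of 7.62% higher and 1.25% lower, and from 6.5 to 7.5 hpf, 2 rose and 12 fell, against 11.9% higher and 78.7% lower. The members' falls are near the background share, and the median change of the 15 genes from 5.5 to 7.5 hpf was -0.99, beside -0.92 for all tested genes.

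How far a message fell depended on what it was scaled to. The median gene changed by -0.92 with TPM as deposited, by -0.67 with TPM rescaled over protein-coding genes and by -0.20 with each library centred on its median gene, and the tested genes that rose and fell numbered 2725 and 15178, 1479 and 13820, and 5098 and 10118 on these scales. The rises of cdc25b.L and cdc25b.S and the falls of chek1, topbp1.L, cdc25a, cdc25c, pkmyt1 and wee2.L were called with the same sign on all 3 scales. topbp1.L had -2.10, -1.80 and -1.37 on them. wee1.L was called higher on the other 2 scales (0.41 and 0.78, limma adjusted p = 3.0e-06 and 8.5e-09), but called lower, at -0.12, when the time change was fitted over all 4 groups on the deposited scale (limma adjusted p = 0.0089). wee1.S and wee2.S were lower on the first 2 scales and higher when centred (0.14 and 0.13, limma adjusted p = 0.030 and 0.033), so the direction of all 3 depends on the scale or the libraries fitted.

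**Figure D2:**
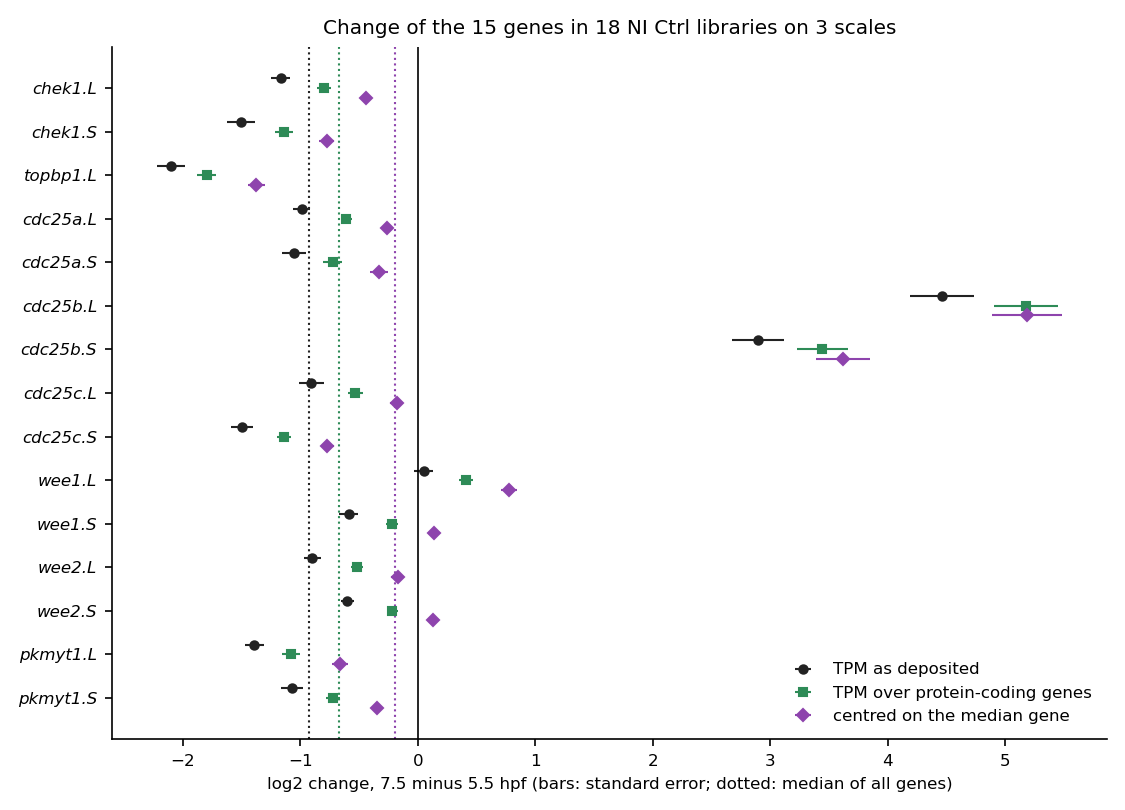
Log2 change from 5.5 to 7.5 hpf in the 18 NI Ctrl libraries (horizontal axis) for each of the 15 genes (vertical axis) on 3 scales; bars are standard errors and dotted lines the median of all tested genes on the scale of the same colour. topbp1.L lies furthest to the left on each scale, the cdc25b homeologs far to the right, and wee1.S and wee2.S change sides of 0 with the scale.

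The changes over time were also taken within each injected group. From 5.5 to 7.5 hpf, 2 genes rose and 12 fell in Cxxc1 MO embryos (background 13.1% higher and 79.3% lower), in Kmt2b MO embryos (13.6% and 78.2%) and in Ctrl MO embryos (14.2% and 78.2%). In each of them the 2 were the cdc25b homeologs and wee1.L was the gene that did not pass (-0.21, -0.17 and -0.15, limma adjusted p = 0.058, 0.12 and 0.14). Over the second hour wee1.L did pass in Cxxc1 MO, Kmt2b MO and Ctrl MO embryos (-0.26, -0.23 and -0.28, limma adjusted p = 0.019, 0.047 and 0.012) and not in NI Ctrl embryos (-0.12, limma adjusted p = 0.17). Over the first hour topbp1.L passed in Cxxc1 MO embryos (-0.43, limma adjusted p = 0.046) and not in Kmt2b MO, Ctrl MO or NI Ctrl embryos (-0.36, -0.36 and -0.34, limma adjusted p = 0.11, 0.081 and 0.10). The rise of cdc25b.L over the 2 hours was 3.68 in Cxxc1 MO, 3.24 in Kmt2b MO, 4.16 in Ctrl MO and 4.46 in NI Ctrl embryos (SE 0.25, 0.19, 0.22 and 0.27). Over the first hour it was 1.02, 0.85, 2.06 and 2.41 in these groups (SE 0.25, 0.19, 0.22 and 0.27), and each passed the test (limma adjusted p = 0.016, 0.0080, 6.0e-06 and 1.2e-05). cdc25b.S had changes of 0.25, 0.09, 0.66 and 1.02 over that hour (SE 0.21, 0.13, 0.18 and 0.22), of which those of Ctrl MO and NI Ctrl embryos passed (limma adjusted p = 0.38, 0.64, 0.024 and 0.0048). Differences between groups in these hourly changes were not tested, whereas those in the change over the 2 hours were. None of the 15 genes, cdc25b.L included, passed for Cxxc1 MO against Ctrl MO, Kmt2b MO against Ctrl MO or Ctrl MO against NI Ctrl. In these 3 comparisons 0, 1 and 1 of the 15 genes had an unadjusted p under 0.05 by limma. Few genes of any kind passed them: of all 19544 tested genes, 0, 3 and 0 were higher and 1, 26 and 0 lower. A miss of the threshold does not show that the rises were equal.

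The 18 other checkpoint and replication genes found from a list of 19 (such as atr, atrip, rad17, timeless, cdc7, dbf4 and ticrr) give the surroundings of this course. All 21 of their tested entries fell from 5.5 to 7.5 hpf in NI Ctrl embryos (median -1.16, beside -0.92 for all tested genes). So did all 21 entries of 11 mitotic genes (median -1.07), which include cdk1, cyclins, plk1 and mastl. The share of all tested genes called lower in NI Ctrl embryos was 77.7% over that time and 1.25% from 5.5 to 6.5 hpf. Whether these lists fell more often or further than all tested genes was not tested. From 5.5 to 6.5 hpf only cdc7.L (-0.46), a kinase that fires replication origins, and both cdk1 homeologs (-0.46 for cdk1.L and -0.48 for cdk1.S) of these entries fell (limma adjusted p = 0.036, 0.0027 and 0.0016).

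The comparison of knockdowns with Ctrl MO asks whether lowering 2 H3K4 methylation factors alters these messages. cdc25a.S was higher in both knockdowns than in Ctrl MO embryos while its homeolog cdc25a.L did not pass the test, and in Kmt2b MO embryos the cdc25b homeologs were lower. The difference of cdc25a.S passed the test at all 3 time points in Kmt2b MO embryos, by 0.72 to 0.92 on the log2(TPM + 1) scale, and at 6.5 and 7.5 hpf in Cxxc1 MO embryos. Of the cdc25b homeologs, cdc25b.L passed in Kmt2b MO embryos at 6.5 and 7.5 hpf and cdc25b.S at 6.5 hpf. In Cxxc1 MO embryos the differences of cdc25b.L and cdc25b.S at 6.5 hpf had the same sign (-1.03 and -0.54) and did not pass. No tested gene passed between the 2 knockdowns. None of the other 12 genes passed in any of the 6 comparisons.

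cdc25a.S (chromosome 6S, 3511830 to 3519058, assembly Xenopus_laevis_v10.1) differed already at the first time point. In frog I at 5.5 hpf the libraries had 21.2, 23.6 and 24.9 TPM in Cxxc1 MO and 24.9, 23.4 and 21.3 TPM in Kmt2b MO embryos, against 21.3, 19.0 and 16.0 TPM in Ctrl MO and 21.8, 17.3 and 17.3 TPM in NI Ctrl embryos. In frog II they had 32.9, 35.4 and 30.5 TPM in Cxxc1 MO and 45.7, 42.8 and 41.2 TPM in Kmt2b MO embryos, against 19.3, 18.9 and 18.1 TPM in Ctrl MO and 19.4, 17.0 and 15.9 TPM in NI Ctrl embryos. The knockdown values of frog II lay well apart from both controls, whereas in frog I the lowest Cxxc1 MO library overlapped with the highest Ctrl MO library and the lowest Kmt2b MO library lay only just above it and below 1 NI Ctrl library. The log2 difference from Ctrl MO at 5.5 hpf was 0.73 for Kmt2b MO (SE 0.14, limma adjusted p = 0.012) and 0.54 for Cxxc1 MO (SE 0.14, limma adjusted p = 0.11, not called). When only Kmt2b MO and Ctrl MO libraries were fitted, the first call was lost (limma adjusted p = 0.089).

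At 6.5 hpf cdc25a.S had 25.2, 20.3 and 27.5 TPM in Cxxc1 MO and 27.0, 22.9 and 27.3 TPM in Kmt2b MO embryos of frog I, against 19.5, 16.7 and 16.7 TPM in Ctrl MO and 18.1, 21.5 and 18.7 TPM in NI Ctrl embryos. In frog II it had 23.0, 21.6 and 22.5 TPM in Cxxc1 MO and 32.7, 36.9 and 33.4 TPM in Kmt2b MO embryos, against 12.2, 12.9 and 14.4 TPM in Ctrl MO and 13.7, 14.3 and 12.8 TPM in NI Ctrl embryos. No knockdown library overlapped with Ctrl MO of its own frog, but the lowest Cxxc1 MO library of frog I lay below the highest NI Ctrl library. The differences from Ctrl MO were 0.92 for Kmt2b MO (SE 0.12, limma adjusted p = 9.7e-05) and 0.58 for Cxxc1 MO (SE 0.12, limma adjusted p = 0.020). The Cxxc1 MO call was lost with no filter on low values (adjusted p = 0.059) and without any one of 4 libraries, Cxxc1 MO replicate 3 of frog I and replicate 1 of frog II and Ctrl MO replicates 1 and 2 of frog II (limma adjusted p = 0.052, 0.054, 0.053 and 0.060).

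At 7.5 hpf cdc25a.S had 15.1, 13.9 and 16.5 TPM in Cxxc1 MO and 18.1, 15.2 and 14.8 TPM in Kmt2b MO embryos of frog I, against 10.8, 10.2 and 12.4 TPM in Ctrl MO and 11.4, 8.33 and 10.5 TPM in NI Ctrl embryos. In frog II it had 10.3, 10.3 and 11.8 TPM in Cxxc1 MO and 16.9, 12.8 and 16.6 TPM in Kmt2b MO embryos, against 7.35, 6.82 and 8.30 TPM in Ctrl MO and 5.98, 6.65 and 7.23 TPM in NI Ctrl embryos. Each frog's knockdown values did not overlap with either control. The differences were 0.72 for Kmt2b MO (SE 0.10, limma adjusted p = 0.00036) and 0.45 for Cxxc1 MO (SE 0.10, limma adjusted p = 0.044). The Cxxc1 MO call at 7.5 hpf was lost with no filter (limma adjusted p = 0.083), when only these 2 groups were fitted (limma adjusted p = 0.10), and without any one of 10 of the 12 libraries compared, all but Cxxc1 MO replicate 2 of frog II and Ctrl MO replicate 3 of frog I (limma adjusted p from 0.051 to 0.13). The Kmt2b MO calls at 6.5 and 7.5 hpf held in every alternative run on both frogs, but cdc25a.S did not pass in frog I fitted alone. For Cxxc1 MO, none of the 15 genes passed in frog I fitted alone at any time point. There 4, 6 and 4 of all tested genes were higher and 0, 3 and 2 lower at 5.5, 6.5 and 7.5 hpf. In frog II alone 1, 1 and 0 of the 15 were higher in Cxxc1 MO embryos at 5.5, 6.5 and 7.5 hpf, where 10, 25 and 16 of all tested genes were.

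cdc25a.L (chromosome 6L, 5974128 to 5993097) had a lowest, median and highest level of 209, 230 and 234 TPM in Cxxc1 MO and 216, 226 and 234 TPM in Kmt2b MO embryos at 6.5 hpf, against 220, 229 and 237 TPM in Ctrl MO embryos (n = 6 each). These ranges overlapped, and the differences from Ctrl MO at 5.5, 6.5 and 7.5 hpf were -0.03, -0.02 and 0.00 for Cxxc1 MO and -0.08, -0.03 and -0.04 for Kmt2b MO (SE 0.04, 0.03 and 0.08, limma adjusted p from 0.745 to 1.0). The share of S in the summed cdc25a level at 6.5 hpf was 9.35% ± 0.88 in Cxxc1 MO, 11.7% ± 1.6 in Kmt2b MO, 6.29% ± 1.0 in Ctrl MO and 6.65% ± 1.2 in NI Ctrl embryos (SD, n = 6 each).

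The log2 ratio of cdc25a.S to cdc25a.L within a library, on TPM + 1, was taken after the values of both homeologs had been seen, so it describes the same observation and is given with no test. It was higher than in Ctrl MO by 0.57, 0.60 and 0.45 in Cxxc1 MO and by 0.81, 0.95 and 0.75 in Kmt2b MO embryos at 5.5, 6.5 and 7.5 hpf. The direction was the same in both frogs each time, with differences of 0.52 to 1.32 in frog II and 0.33 to 0.57 in frog I. Reads that fit both homeologs may have been divided between them by the authors' pseudoalignment, and the part of this in the ratio was not tested.

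**Figure D3:**
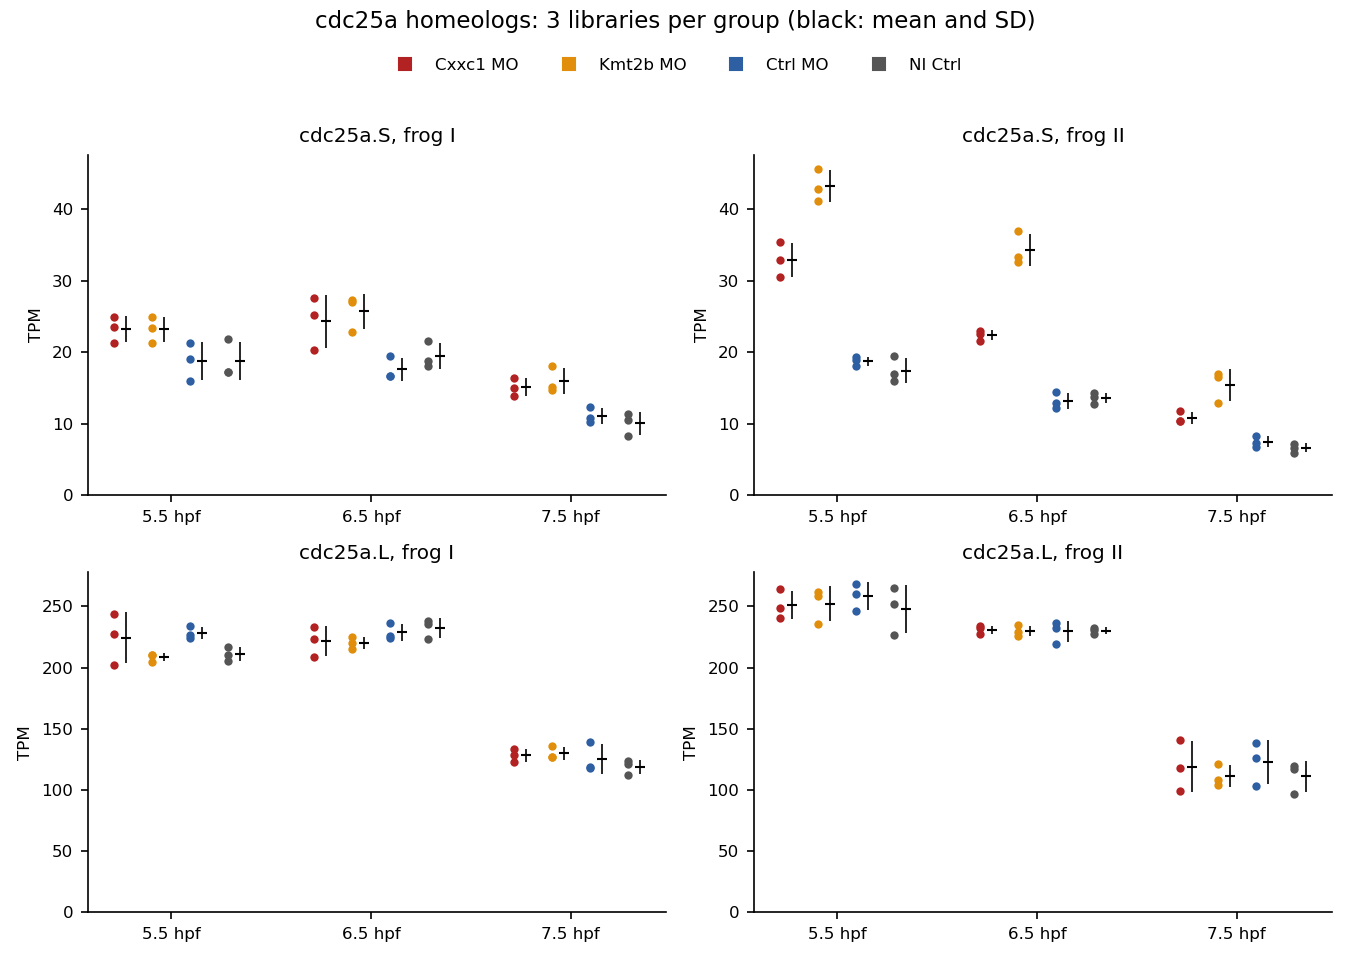
TPM (vertical axis, from 0) of cdc25a.S and cdc25a.L against time in frogs I and II; coloured points are the 3 libraries of each group and black marks their mean and SD. The knockdown points of cdc25a.S lie above the control points in frog II, up to 45.7 TPM for Kmt2b MO at 5.5 hpf, and partly mix with them in frog I at 5.5 and 6.5 hpf, while those of cdc25a.L mix with the controls.

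For Kmt2b MO, the difference of cdc25a.S from Ctrl MO was 1.16, 1.32 and 0.95 in frog II and 0.30, 0.52 and 0.49 in frog I at 5.5, 6.5 and 7.5 hpf, each from 12 libraries. In these fits none of the 15 genes passed in frog I. There 3, 20 and 5 of all 19544 tested genes were higher and 0, 4 and 0 lower. In frog II 1 of the 15 was higher each time, where 15, 90 and 39 of all tested genes were. Lower in frog II were 0, 1 and 0 of the 15, where 2, 40 and 41 of all tested genes were. The difference of cdc25a.S between frogs, II minus I, did not pass the test across all genes (0.86, 0.80 and 0.46, limma adjusted p = 0.11, 0.36 and 1.0). Between the knockdowns, Kmt2b MO exceeded Cxxc1 MO by 0.19, 0.34 and 0.27 (SE 0.14, 0.12 and 0.10, limma adjusted p = 0.93, 1.0 and 1.0). The change of the Kmt2b MO difference from 5.5 to 7.5 hpf was -0.01 (SE 0.18, limma adjusted p = 1.0). The 6 gene entries that flank cdc25a.S on chromosome 6S, 3 on each side and chosen after its values were seen, had differences of -0.19 to 0.25 from Ctrl MO over both knockdowns and the 3 time points, and none was called (lowest limma adjusted p = 0.32).

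The cdc25b homeologs moved in the other direction once they were expressed. At 6.5 hpf cdc25b.L (chromosome 1L, 11119190 to 11134526) had 0.539, 1.12 and 0.990 TPM in Cxxc1 MO and 0.493, 0.580 and 0.933 TPM in Kmt2b MO embryos of frog I, against 2.16, 1.77 and 2.37 TPM in Ctrl MO and 2.73, 3.98 and 0.852 TPM in NI Ctrl embryos. In frog II it had 1.98, 0.505 and 2.89 TPM in Cxxc1 MO and 1.76, 0.514 and 1.45 TPM in Kmt2b MO embryos, against 3.64, 5.65 and 8.11 TPM in Ctrl MO and 7.10, 9.71 and 8.91 TPM in NI Ctrl embryos. Every knockdown library was below every Ctrl MO library of its frog, and 1 NI Ctrl library of frog I lay within the knockdown range. The log2 difference from Ctrl MO was -1.24 for Kmt2b MO (SE 0.27, limma adjusted p = 0.013) and -1.03 for Cxxc1 MO (SE 0.27, limma adjusted p = 0.074, not called). The Cxxc1 MO difference passed with NI Ctrl as the control (-1.34, limma adjusted p = 0.0097) and with TPM rescaled over protein-coding genes (-1.10, limma adjusted p = 0.030).

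At 7.5 hpf cdc25b.L had 5.56, 17.1 and 9.97 TPM in Cxxc1 MO and 4.45, 8.73 and 5.79 TPM in Kmt2b MO embryos of frog I, against 12.4, 17.3 and 20.8 TPM in Ctrl MO embryos. In frog II it had 16.1, 12.2 and 23.0 TPM in Cxxc1 MO and 13.4, 12.9 and 12.3 TPM in Kmt2b MO embryos, against 14.8, 22.3 and 25.4 TPM in Ctrl MO embryos. Kmt2b MO libraries lay below those of Ctrl MO in both frogs, and Cxxc1 MO libraries overlapped with them. The differences were -0.96 for Kmt2b MO (SE 0.23, limma adjusted p = 0.028) and -0.48 for Cxxc1 MO (SE 0.23, limma adjusted p = 0.71). With each frog fitted alone, none of the 15 genes was called lower in Kmt2b MO embryos at this time. Of all tested genes, 0 were called lower in frog I and 41 in frog II. The Kmt2b MO call was lost with no filter on low values (limma adjusted p = 0.058) and without any one of 7 libraries (adjusted p of 0.050 to 0.084), which were Kmt2b MO replicates 1 and 3 and Ctrl MO replicates 2 and 3 of frog I, and Kmt2b MO replicate 3 and Ctrl MO replicates 2 and 3 of frog II.

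cdc25b.S at 6.5 hpf had 0.533, 0.923 and 1.14 TPM in Cxxc1 MO and 0.732, 0.861 and 1.04 TPM in Kmt2b MO embryos of frog I, against 1.13, 1.44 and 1.29 TPM in Ctrl MO embryos. In frog II it had 2.38, 1.87 and 1.73 TPM in Cxxc1 MO and 1.79, 1.63 and 1.44 TPM in Kmt2b MO embryos, against 3.37, 4.26 and 4.75 TPM in Ctrl MO embryos. The knockdown libraries lay below Ctrl MO in frog II, and in frog I those of Kmt2b MO did while 1 Cxxc1 MO library overlapped with Ctrl MO. The differences were -0.62 for Kmt2b MO (SE 0.15, limma adjusted p = 0.030) and -0.54 for Cxxc1 MO (SE 0.15, limma adjusted p = 0.11, and 0.048 with NI Ctrl as the control). At 7.5 hpf they were -0.41 and -0.20 (SE 0.20 each, limma adjusted p = 0.50 and 1.0). The Kmt2b MO call at 6.5 hpf was lost with no filter (limma adjusted p = 0.062), when only the 2 groups were fitted (0.055), and without Ctrl MO replicate 2 of frog I, Ctrl MO replicates 2 and 3 of frog II or any 1 of the 3 Kmt2b MO libraries of frog II (0.055 to 0.089). With each frog fitted alone, 1 of the 15 genes was lower in Kmt2b MO embryos at 6.5 hpf in frog II and none in frog I. Of all tested genes, 40 were lower in frog II and 4 in frog I.

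**Figure D4:**
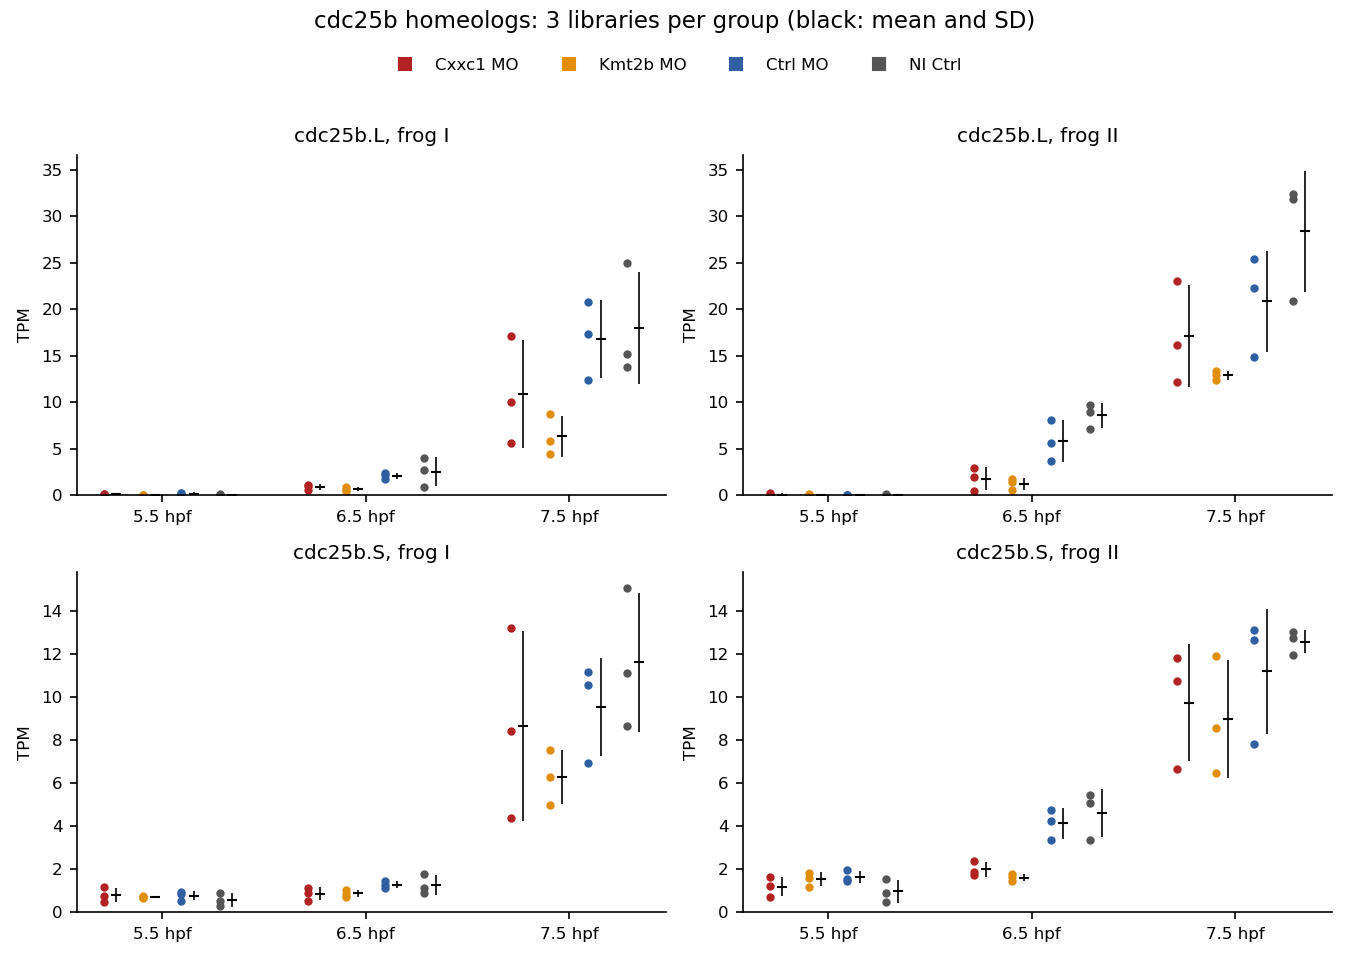
TPM (vertical axis, from 0) of cdc25b.L and cdc25b.S against time in frogs I and II; coloured points are the 3 libraries of each group and black marks their mean and SD. Both messages are low at 5.5 hpf and climb in all 4 groups, with Kmt2b MO points of cdc25b.L below Ctrl MO points at 6.5 and 7.5 hpf.

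The zygotic markers overlapped between groups at 6.5 hpf. The markers' median log2 difference from Ctrl MO at 6.5 hpf came to -0.32 for Cxxc1 MO and to -0.34 for Kmt2b MO, where the median of all tested genes was -0.04 and -0.03, and it was -0.25 between Ctrl MO and NI Ctrl embryos. At 7.5 hpf it was -0.50 for Cxxc1 MO and -0.47 for Kmt2b MO, where the median of all tested genes was -0.013 and -0.0028. Between Ctrl MO and NI Ctrl embryos it was then -0.05. The marker sum over 8 entries ranged from 16.0 to 27.8 TPM in Cxxc1 MO and 15.0 to 29.5 TPM in Kmt2b MO embryos at 6.5 hpf, against 15.1 to 46.1 TPM in Ctrl MO and 18.9 to 55.9 TPM in NI Ctrl embryos. At 7.5 hpf it ranged from 68.4 to 130 TPM in Cxxc1 MO and 64.9 to 112 TPM in Kmt2b MO embryos, against 94.9 to 240 TPM in Ctrl MO and 97.9 to 198 TPM in NI Ctrl embryos. At 7.5 hpf gsc.L, gsc.S, mixer.S and sia1.L, transcription factor genes of the organizer and endoderm, were lower in Kmt2b MO than in Ctrl MO embryos by the limma test, and gsc.S in Cxxc1 MO embryos. Of all tested genes, 0.752% were lower in Kmt2b MO and 0.235% in Cxxc1 MO embryos at that time. None of the 8 marker entries passed at 5.5 or 6.5 hpf, and their part in the cdc25b result was not tested. The entry LOC108697345 lies within the span of cdc25b.L, at 11121893 to 11123226, and was also lower at 6.5 hpf (-1.18 in Cxxc1 MO and -1.36 in Kmt2b MO, limma adjusted p = 0.042 and 0.0078). Whether the 2 entries share reads was not tested.

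Among the 15 genes, 1 was higher and none lower in Kmt2b MO embryos at 5.5 hpf, where 0.66% of all tested genes were higher and 0.0512% lower. At 6.5 hpf 1 was higher and 2 were lower (background 1.46% and 0.788%), and at 7.5 hpf 1 was higher and 1 lower (1.03% and 0.752%). In Cxxc1 MO embryos none passed at 5.5 hpf (limma, 1 at an unadjusted p under 0.05, background 0.363% higher and 0.0153% lower), and 1 was higher and none lower both at 6.5 hpf (0.573% and 0.43%) and at 7.5 hpf (0.302% and 0.235%). These counts rest on cdc25a.S and the cdc25b homeologs.

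For the other 12 genes, chek1, topbp1.L, cdc25a.L, cdc25c, wee1, wee2 and pkmyt1, the log2 differences from Ctrl MO lay between -0.15 and 0.13 in Cxxc1 MO and between -0.17 and 0.12 in Kmt2b MO embryos over the 3 time points, with standard errors of at most 0.11 (lowest limma adjusted p = 0.27). wee2.L at 6.5 hpf had the lowest adjusted p in both knockdowns, with a difference of 0.10 each (SE 0.04, limma adjusted p = 0.27 in Cxxc1 MO and 0.29 in Kmt2b MO). A p that misses the threshold does not show that the levels were equal.

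**Figure D5:**
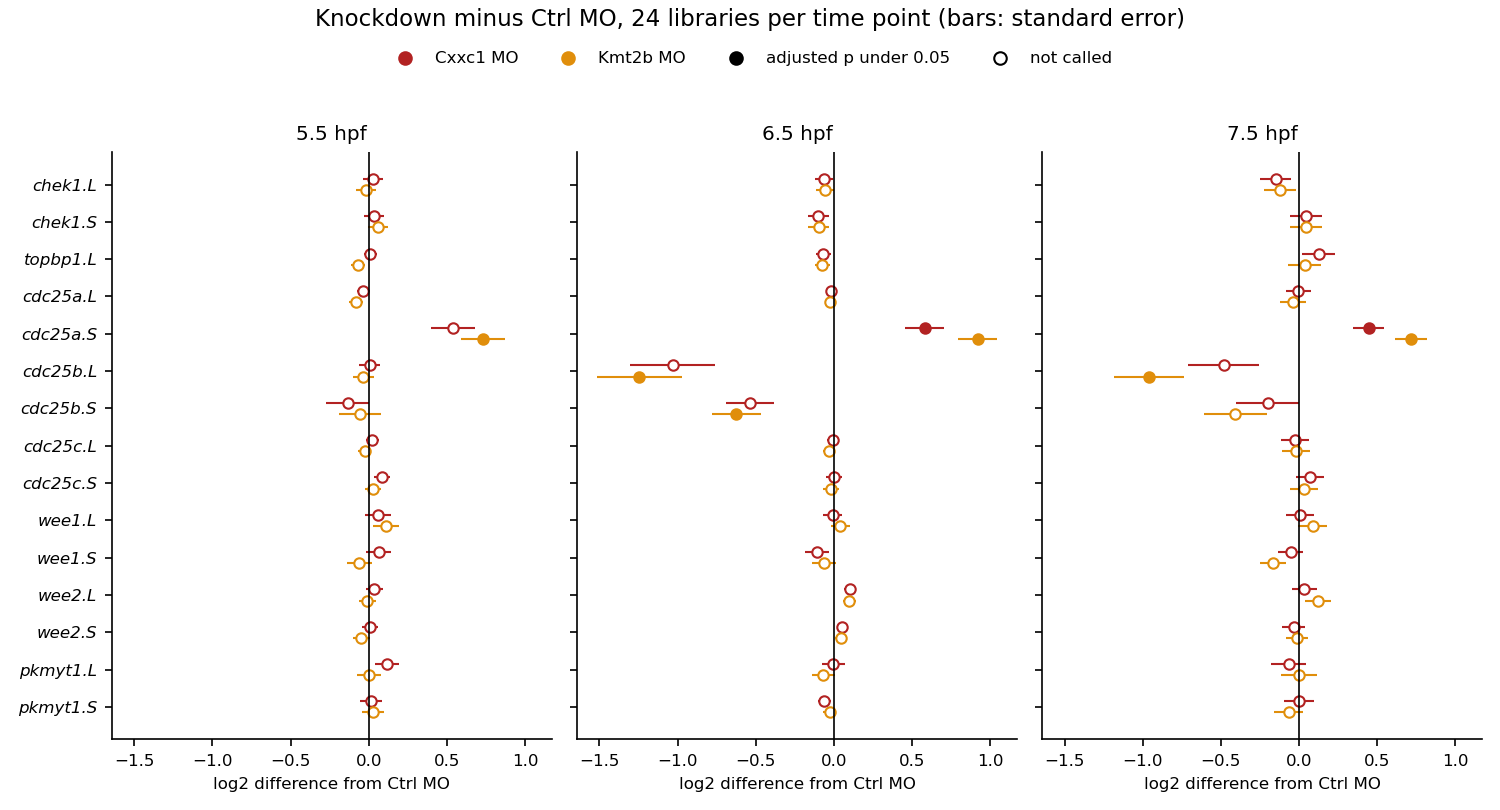
Log2 difference from Ctrl MO (horizontal axis) of the 15 genes (vertical axis) in Cxxc1 MO and Kmt2b MO embryos at the 3 time points, each from a fit of 24 libraries; bars are standard errors and filled points passed the test. Filled points to the right of 0 belong to cdc25a.S, at 0.45 to 0.92, and filled points to the left to the cdc25b homeologs, at -0.62 to -1.24.

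In the lists of other cell-cycle genes, only cdc7.L and the cdk1 homeologs passed in a knockdown. Of all tested genes, 1.46% were higher in Kmt2b MO embryos at 6.5 hpf and 1.03% at 7.5 hpf. Of the 21 checkpoint and replication entries, cdc7.L was higher in Kmt2b MO embryos at 7.5 hpf (0.46, SE 0.09, limma adjusted p = 0.0065). Of the 21 mitotic entries, cdk1.S was higher in Kmt2b MO embryos at 6.5 hpf (0.22, SE 0.05, limma adjusted p = 0.014), and cdk1.L and cdk1.S at 7.5 hpf (0.46 and 0.40, SE 0.09 each, limma adjusted p = 0.0069 and 0.018). These are the 3 entries of both lists that fell from 5.5 to 6.5 hpf in NI Ctrl embryos. Whether that fall and their higher level in Kmt2b MO embryos are linked was not tested. No entry of either list passed in Cxxc1 MO embryos or was lower in a knockdown.

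The comparison of Ctrl MO with NI Ctrl embryos asks what injection itself changed. None of the 15 genes passed between Ctrl MO and NI Ctrl embryos at 5.5, 6.5 or 7.5 hpf by limma (2, 1 and 2 at an unadjusted p under 0.05), where 0.0307%, 0.0307% and 0.0102% of all tested genes did. topbp1.L was among those unadjusted values each time, with differences of 0.14, 0.12 and 0.25 (SE 0.04, 0.05 and 0.10, limma adjusted p = 0.61, 1.0 and 0.67). cdc25a.S differed by 0.05, -0.09 and 0.15 between Ctrl MO and NI Ctrl embryos, all smaller than its differences between knockdowns and Ctrl MO. The largest differences among the 15 genes were those of cdc25b.S at 5.5 hpf (0.31) and cdc25b.L at 6.5 and 7.5 hpf (-0.31 and -0.25). Those of cdc25b.L had the same sign as its knockdown differences. A comparison of its knockdown level with NI Ctrl therefore includes this difference. Between Kmt2b MO and Cxxc1 MO embryos no gene of any kind passed at the 3 time points by limma (0% of all tested genes, 737, 597 and 767 of them at an unadjusted p under 0.05), and of the 15, 0, 1 and 2 had such an unadjusted p.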

How the data were processed

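Total RNA depleted of ribosomal RNA was sequenced from 72 libraries. The authors pseudoaligned reads with kallisto 0.48 to the Xenbase v10.1 transcripts, imported them with tximport in R 4.3.2 and deposited TPM per gene, 1 table per frog; the submitters' notes also name DESeq2 1.42.1. The deposited TPM hold no counts, so no count test was run and depth is unknown. All per-library columns were used. Names were matched to the RefSeq table of assembly Xenopus_laevis_v10.1 (38926 of 39668 entries).

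The 19544 genes that averaged 1 TPM or more over the 36 libraries of each frog were tested on log2(TPM + 1), which understates changes of low values, with limma 3.58.1 (eBayes with trend) in R 4.3.3, frog as a covariate and Benjamini-Hochberg adjustment over all tested genes; a call is an adjusted p under 0.05. The fit was also run on simulated data, and the outcome is not reported here. All 15 members are named, and the genes most like a member are the 3 with the highest Pearson's r. Members, lists and tests were chosen with earlier results of these data known. Group and set come from the labels. Alternatives were another pseudocount, no filter, centring, protein-coding TPM, only the groups compared, all groups together, NI Ctrl as control, the set number as a block and leaving out each library.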

Additional observations from a re-analysis of the deposited data

How the results depend on the processing

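Without 1 of the 18 NI Ctrl libraries, 2 genes rose and 12 fell each time. Centring each library on its median gene gave 5 higher, with wee1.S at 0.14 and wee2.S at 0.13 turned round, and a fit of all 4 injection groups together called wee1.L lower (-0.12, limma adjusted p = 0.0089). For members higher in Cxxc1 MO, NI Ctrl as the control gave 1 at 5.5 hpf, no filter gave 0 at 6.5 and 7.5 hpf, and a fit of only the 2 groups gave 0 at 7.5 hpf; for Kmt2b MO at 5.5 hpf that fit gave 0. For members lower in Cxxc1 MO at 6.5 hpf, protein-coding TPM gave 1 and NI Ctrl as the control 2. For members lower in Kmt2b MO, no filter gave 1 and the fit of 2 groups 1 at 6.5 hpf, and at 7.5 hpf no filter gave 0 and centring 2. Leaving out a library gave 0 to 1 higher in Cxxc1 MO at 6.5 and at 7.5 hpf, 1 to 2 lower in Kmt2b MO at 6.5 hpf and 0 to 1 lower at 7.5 hpf. The cause of these moves was not tested.

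Over all genes, the counts called in a knockdown moved with the alternatives and with left-out libraries. Higher genes in Cxxc1 MO numbered 71, 112 and 59 at the 3 time points (40 to 183, 70 to 281 and 2 to 300 over the alternatives other than left-out libraries), and in Kmt2b MO 129, 285 and 201 (71 to 247, 185 to 478 and 148 to 874). Lower genes numbered 3, 84 and 46 in Cxxc1 MO (1 to 15, 41 to 317 and 4 to 219) and 10, 154 and 147 in Kmt2b MO (5 to 53, 68 to 230 and 115 to 392). Leaving out a library gave 42 to 100, 71 to 121 and 33 to 100 higher and 2 to 4, 34 to 102 and 29 to 82 lower in Cxxc1 MO, and 73 to 140, 221 to 307 and 102 to 279 higher and 5 to 12, 87 to 187 and 93 to 142 lower in Kmt2b MO. Many single libraries moved such a count by over 1.5 times. The 34 lower in Cxxc1 MO at 6.5 hpf came without Cxxc1 MO replicate 1 of frog II, the 87 lower in Kmt2b MO at 6.5 hpf without Ctrl MO replicate 2 of frog II, and the 102 higher in Kmt2b MO at 7.5 hpf without Kmt2b MO replicate 1 of frog II. Between Ctrl MO and NI Ctrl 6, 6 and 2 genes passed (4 to 6, 5 to 10 and 0 to 19 over the alternatives, 4 to 8, 5 to 8 and 1 to 2 with a library left out). In NI Ctrl, 2725 genes rose (1479 to 5098) and 15178 fell (10118 to 17353) from 5.5 to 7.5 hpf.

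The set numbers did not pair the libraries: of 54 pairs with the same number 10 had deviations correlated over 0.1 (median 0.012). With the set as a replicate block, 2 members rose and 12 fell over time, and 1, 1 and 1 were higher in Kmt2b MO at the 3 time points; no member's call changed. TPM gives no depth, so the precision of low values such as cdc25b at 5.5 hpf is unknown.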
